A study of Drosophila melanogaster with 3 samples.

Results

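Hr3, also named Hr46, bound the embryonic genome of Drosophila melanogaster partly in clusters, runs of 4 or more peak summits in which no gap to the next summit exceeded 5000 bp. The rule was applied to the authors' list of peaks reproducible between replicates, on the dm6 assembly, and 983 of its 5357 summits (18.3%) fell into 201 clusters. The clusters were chosen by measured values, the positions of the reproducible peaks, so their spacing and number are descriptions. No test was made on them or on the signals of the same peaks. Chromatin immunoprecipitation with sequencing (ChIP-seq) was done on whole embryos collected from 0 to 24 h of age, with male and female embryos pooled. All embryos came from 1 transgenic line, strain Hr3-GFP, that stably makes Hr3 with green fluorescent protein (GFP) at its C-terminus. The precipitation used an antibody against GFP, and the labels give 1 group of 3 biological replicates. There is no second genotype, stage or treatment, and the whole embryo mixes all tissues. Sites bound in different cells or at different hours within a cluster cannot be told apart. The files hold peaks without reads, so the depth is unknown, and the control library named in the deposited texts was not analysed here. Signals are therefore given as a relative signal, the authors' peak signal in a replicate divided by that replicate's median over the reproducible peaks. A value of 1 is a typical reproducible peak.

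Hr3 is a nuclear receptor of the ROR family, the retinoic acid receptor-related orphan receptors of mammals. It acts in the cascade that the steroid hormone ecdysone starts, in which early genes such as Eip75B are followed by Hr3 and Hr4, and then by ftz-f1, a nuclear receptor gene that Hr3 is known to activate. The Eip75B protein is known to bind Hr3 and to block that activation. Receptors of this family bind as single molecules to the ROR response element (RORE), an A/T-rich stretch followed by a hormone receptor hexamer. Long developmental genes of the fly often hold several regulatory elements in their introns, and compact gene-dense stretches hold many promoters close together. A run of summits can lie in either setting.

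The RORE was found within 100 bp of the summit in 15 of 983 cluster summits, with 16 matches in all. Printed here are the matches at ftz-f1, Eip75B and Hr4, because these are ecdysone cascade genes, and those at beat-Ib, the only other cluster with a match at more than 1 summit. These are 10 of the 16, and a further match in a cascade gene, at EcR, is not printed. They are from dm6, 5′ to 3′ on the strand named, with the RORE in capitals.
ftz-f1 chr3L:18783798-18783827 plus: cgaagcttgaAACTGGGTCAcgaggccaca
ftz-f1 chr3L:18788083-18788112 minus: ggtcaatgcaATTTGGGTCAcctagatttg
ftz-f1 chr3L:18788098-18788127 minus: ccccttttgaAACTAGGTCAatgcaatttg
ftz-f1 chr3L:18789628-18789657 plus: caaatagtcaAAGTGGGTCAaaaagtggct
Eip75B chr3L:17964748-17964777 minus: agcgacttctATTTGGGTCAggcacggtca
Eip75B chr3L:17967345-17967374 minus: cgtgcagcgaAACTGGGTCAccattggcag
Eip75B chr3L:17972522-17972551 minus: gctgaccgaaATGTGGGTCAcgacaatggc
Hr4 chrX:1970803-1970832 plus: gtggctgaaaAATTGGGTCAgccattgaac
beat-Ib chr2L:15908814-15908843 plus: gtggaataaaAAGTAGGTCAccgaccatga
beat-Ib chr2L:15911537-15911566 minus: gcgcccaaaaAAGTGGGTCAgcgaagagca

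The windows of 81 bp centred on the strongest summits of the ush, ph-p, Trl and CG4004 clusters are printed to show the strongest binding. Of the clusters described by name they have the highest strongest summits apart from the one in Hr3, and they held none of the 9 elements searched. They are dm6 plus-strand sequence in lower case throughout, since no element was there to capitalise.
ush chr2L:481035-481115 plus: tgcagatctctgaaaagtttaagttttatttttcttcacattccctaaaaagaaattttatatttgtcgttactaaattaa
ph-p chrX:2137309-2137389 plus: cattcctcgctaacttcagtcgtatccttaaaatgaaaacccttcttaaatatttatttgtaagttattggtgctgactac
Trl chr3L:14759477-14759557 plus: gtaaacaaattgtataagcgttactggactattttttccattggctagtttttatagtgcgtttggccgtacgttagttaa
CG4004 chrX:12751278-12751358 plus: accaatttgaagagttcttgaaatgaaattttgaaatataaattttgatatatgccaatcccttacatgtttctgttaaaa
The G+C content of these windows was 23.5%, 33.3%, 34.6% and 24.7% in the order printed. Over the 23 such windows without a whole element, of 28 at strongest summits of named clusters, the lowest G+C content was 21%, the median 30.9% and the highest 50.6%. The highest of these was at ftz-f1, where the window of 81 bp ends inside a RORE printed above, so that summit does have the element. The window at the strongest Eip75B summit with a RORE had 59.3%.

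Most clusters were small and a few were long. There were 110 clusters of 4 summits, 45 of 5, 23 of 6, 15 of 7, 2 of 8, 1 of 9 and 5 of 10. The span from first to last summit had a median of 7457 bp, with quartiles of 5186 and 10013 bp. The shortest cluster, in CG32425 on 3L, covered 1296 bp, and the longest, at the bantam microRNA on 3L, covered 22762 bp. Together the spans covered 1.2% of the 6 chromosome arms. The 782 gaps inside clusters ran from 199 to 4983 bp with a median of 1804.5 bp, against 8545 bp over all neighbouring summits. Of these gaps, 118 were 500 bp or shorter, and in 113 neighbouring pairs, spread over 93 clusters, the peaks overlapped. Many peaks in the list have the same width, so overlap of close summits follows in part from that width. Some neighbours may be parts of 1 wider enriched region. In single replicates, 10.8% to 13.7% of the members with a peak shared that peak with a neighbouring member, and such neighbours carry the same value. At the edge of the rule, 53 gaps inside clusters lay between 4500 and 5000 bp, and 25 of the 402 gaps that flanked clusters were 6000 bp or shorter, the nearest being 5005 bp. Outside clusters, 2124 summits stood in runs of 2 or 3 and 2250 stood alone.

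**Figure D1:**
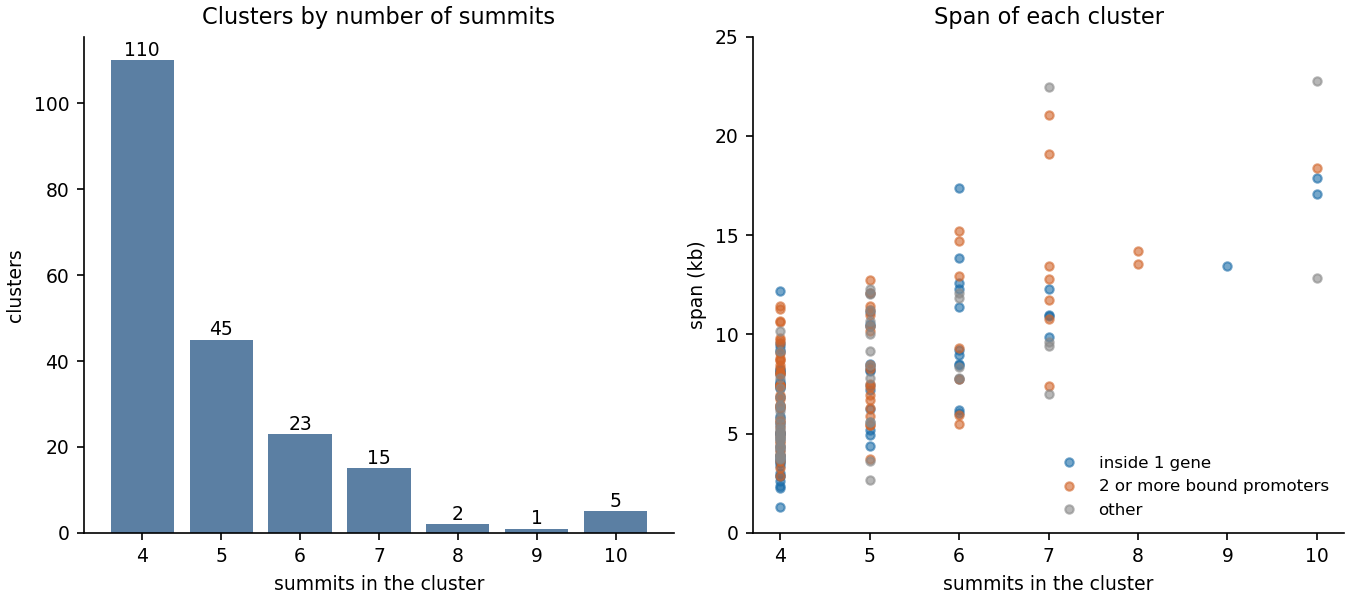
Left, number of clusters by the number of summits they hold. Right, span in kb from first to last summit of each of the 201 clusters, coloured by layout; the shortest cluster covers 1296 bp, and the 5 clusters of 10 summits cover 12862 to 22762 bp.

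The clusters recurred to a large degree in the replicates, which is not independent of the rule because the replicates made the list. When the 5357 strongest peaks of each replicate were clustered in the same way, replicate 1 gave 188 clusters, replicate 2 gave 200 and replicate 3 gave 206. These overlapped 131, 156 and 157 of the 201 clusters, or 73.6% ± 7.33 (SD, n = 3). Replicate 1 was the lowest of the 3. In all, 94 clusters were found in 3 replicates, 65 in 2, 32 in 1 and 10 in none. The same summit was the strongest in all replicates in 144 clusters (71.6%). A peak was present in every replicate at 962 members, and the other 21 lacked one in at least 1 replicate.

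Members of clusters were slightly stronger than other summits and varied widely within a cluster. The median relative signal of members was 1.13, 1.09 and 1.09 in replicates 1, 2 and 3. Summits in runs of 2 or 3 had medians of 1.03, 1.06 and 1.05, and single summits had 0.932, 0.918 and 0.929. The 3 ranges did not overlap and rose with crowding. The log2 ratio of the median of members to that of all other summits was 0.16 ± 0.03 (SD, n = 3), positive in 3 of 3 replicates. It was 0.20 ± 0.03 among promoter summits and 0.22 ± 0.05 among the rest. The strongest summit of a cluster was a median of 3.60 ± 0.0131 times the weakest (SD, n = 3) and held 36.6% ± 0.436 of the cluster's signal. Summits of the same cluster resembled each other little in strength, with an intraclass correlation of log2 signal of 0.0705 ± 0.0129 (SD, n = 3). Clusters held 2 of the 10 strongest summits of the list, 30 of the strongest 100 and 117 of the strongest 500 (23.4%). The spread between replicates was similar inside and outside, with a median coefficient of variation of 16.4% for members and 15.8% for other summits.

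Cluster summits lay more often in introns and less often at promoters than the others. A promoter is taken as 500 bp on either side of a transcription start site (TSS). Promoters held 387 of 983 members, or 39.4% (exact Clopper-Pearson 95% interval 36.3 to 42.5%), against 54.0% (52.5 to 55.5%) of the other 4374 summits. Introns held 44.7% (41.5 to 47.8%) of members and 30.9% (29.6 to 32.3%) of the others. The shares between genes were close, 13.0% and 13.3%. No member lay in a coding exon, 0 of 983, which allows a share of up to 0.375% by the exact interval, and 7 of 4374 others did. Runs of 2 or 3 had 54.7% at promoters, beside 53.3% of single summits. These intervals cover counting error only. Neighbouring summits share a gene and are not independent, so no test was made. Of the member summits at promoters, 83.2% lay upstream of the TSS, and of the others 85.3%. Over all promoter summits, upstream and downstream together, the median position was 115 bp upstream for members and 119 bp upstream for others.

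**Figure D2:**
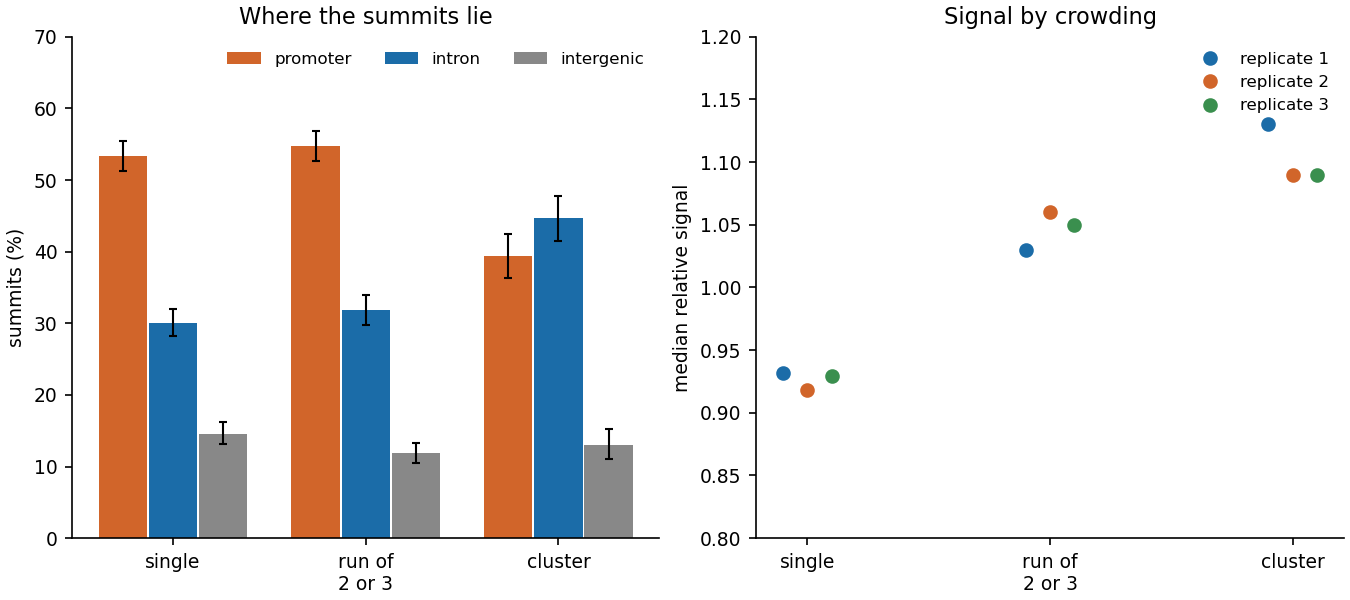
Left, share in % of single summits, summits in runs of 2 or 3 and cluster summits that lie at promoters, in introns or between genes, with exact 95% intervals as bars; promoters fall to 39.4% and introns rise to 44.7% in clusters. Right, median relative signal of the same classes in each of the 3 replicates, on an axis that starts at 0.8; the cluster medians lie between 1.09 and 1.13.

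The clusters had 3 layouts over genes. In 77 clusters (38.3%, exact 95% interval 31.6 to 45.4%) all summits lay in the body of 1 protein-coding gene extended by 500 bp. This layout was assigned first, and some of the 77 also had summits at promoters of up to 3 protein-coding genes, as at Hyls1 and chif. Of the clusters outside these 77, 75 (37.3%, 30.6 to 44.4%) had summits at the promoters of 2 or more protein-coding genes. The other 49 (24.4%, 18.6 to 30.9%) were mixed or lay between genes, and some of these, such as the Raf cluster, had all but 1 of their summits in 1 gene. Of the members of single-gene clusters 79.7% were intronic, and of the members of several-promoter clusters 70.8% were at promoters. The third layout had 46.9% of its members between genes. The median relative signal was 1.05 ± 0.0314, 1.11 ± 0.0169 and 1.17 ± 0.0152 (SD, n = 3) for the 3 layouts in that order, lowest in single-gene clusters. In the whole set, 49 clusters had no promoter summit at all and 27 had all of their summits at promoters.

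Single-gene clusters lay in long genes. Their 72 host genes had a median length of 33552 bp, against 2166 bp over all protein-coding genes, and 54 of them were 20 kb or longer. A long gene has more room for a run of summits, and the part of length in this was not tested. A first intron held 232 of their 375 members (61.9%). In host genes of 20 kb or longer it held 62.0% (exact 95% interval 56.2 to 67.5%) of 297 members, against 49.0% (46.2 to 51.8%) of the 1272 summits outside clusters in genes of that length. These sets were not matched for promoter summits. Promoters held 20% of all single-gene cluster members and 54% of all summits outside clusters, and the part of this was not tested. Members were no closer to the 5′ end, since the 5′-most of 3 equal parts of these genes held 43.8% of them and 48.9% of the other summits. More than 1 such cluster lay in 4 genes. The gene ush, for a cofactor of GATA transcription factors, had 15 summits in 2 clusters. The gene shn, for a zinc-finger protein of the Dpp pathway, had 11 in 2. Eip75B had 10 in 2, and CG1677 had 14 in 3.

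The ush cluster held the strongest summit of the whole list. Its 9 summits lay at 2L from 480051 to 493498, in the 64341 bp gene ush and beside cbt, which encodes a zinc-finger transcription factor. The strongest was intronic within ush and lay 1387 bp upstream of the cbt TSS, with relative signals of 15.8, 18.1 and 18.3 in replicates 1, 2 and 3 (17.4 ± 1.35, SD, n = 3). It carried 63.2% ± 2.19 of the cluster's signal. The next was 363 bp upstream of the cbt TSS with 3.97, 3.80 and 3.94. The other 7 summits were ordinary, with means from 0.573 to 1.22. All replicates gave this shape of 1 dominant summit followed by weak ones.

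The clusters at Trl, ph-p and larp also had 1 summit well above the others. At Trl, which encodes the GAGA factor, 4 summits covered 4182 bp at 3L from 14756205 to 14760387. The strongest was intronic, 1532 bp downstream of a Trl TSS, with 8.51, 7.71 and 9.04 (8.42 ± 0.669, SD, n = 3), and the other 3 had means from 1.28 to 2.12. At ph-p, a gene of the Polycomb repressive complex, 6 summits lay at X from 2134415 to 2146271. The strongest stood 494 bp upstream of the TSS with 10.8, 9.00 and 10.7 (10.2 ± 1.03), and a second one 393 bp downstream had 5.22, 4.05 and 3.45. The 8 summits at larp, for a La-related RNA-binding protein, lay at 3R from 28326590 to 28340142. One larp promoter had 6.65, 6.76 and 6.85 (6.75 ± 0.104), and the other 7 summits had means of at most 1.23.

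The large clusters at Raf and CHES-1-like were more even. Raf encodes the kinase between Ras and the MAP kinase cascade, and CHES-1-like encodes a forkhead transcription factor. At Raf, 10 summits lay at X from 2293719 to 2306581, and the strongest had 4.53, 5.21 and 5.30 (5.02 ± 0.421, SD, n = 3) and 24.1% of the signal. The other Raf summits had means from 0.806 to 2.67. At CHES-1-like, 10 summits lay in 17055 bp at X from 7692155 to 7709210. The strongest had 3.37, 3.86 and 3.98 (3.74 ± 0.327) and 19.1% of the signal. There 3 others had means of 2.47, 2.82 and 3.33, so several sites of similar strength stood side by side. A pair of Raf summits, at 2296310 and 2296513, fell into the same wide peak of replicate 1 and have the same value there, 2.98.

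**Figure D3:**
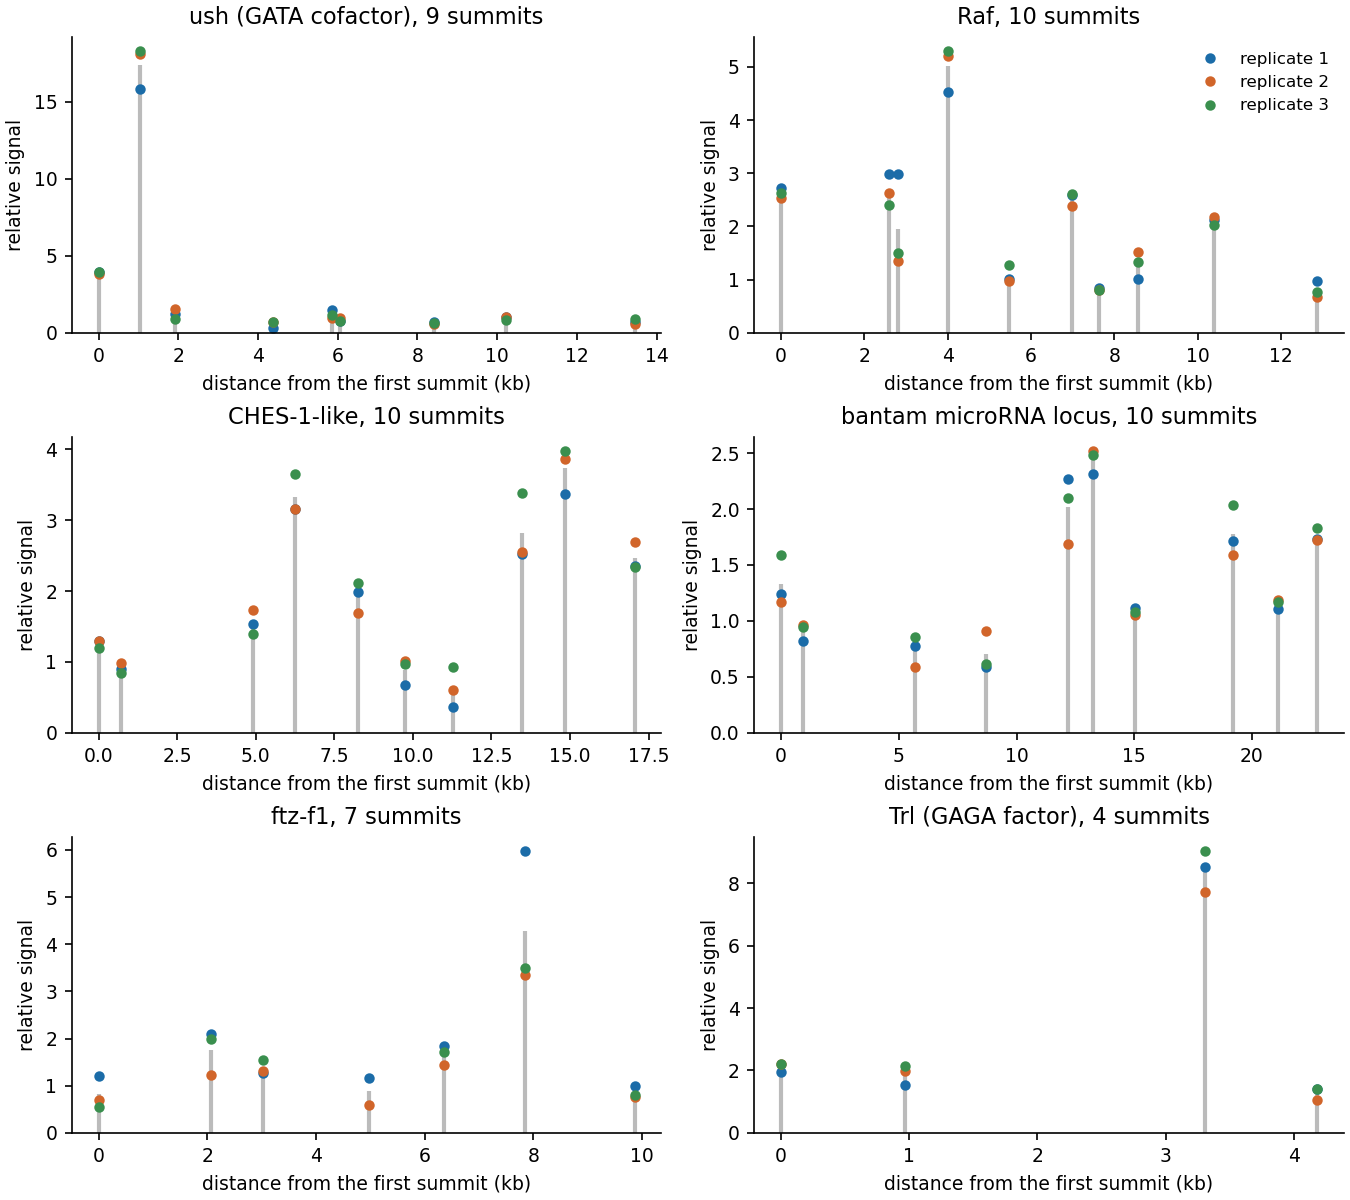
Relative signal of every summit in 6 clusters against the distance in kb from the first summit, with 1 point per replicate and a grey line to the mean of the replicates that have a peak. The ush and Trl clusters are dominated by 1 summit at 17.4 and 8.42, while the Raf, CHES-1-like and bantam clusters hold several summits of similar height; replicate 1 stands apart at the strongest ftz-f1 summit.

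The shortest clusters differed in how often they recurred. Of the 10 shortest, of at most 3259 bp, 3 were found in all 3 replicates, 4 in 2, 2 in 1 and 1 in none. At CG32425, 4 summits lay in 1296 bp at 3L from 20508358 to 20509654, and the strongest had 2.14, 2.53 and 0.537, low in replicate 3. That cluster was found in the list of 1 replicate. The 4 summits at Hyls1, for a centriole protein, and chif, for a regulator of the Cdc7 kinase, lay at 2L from 16350463 to 16352740. Their strongest had 3.85, 4.73 and 4.82 (4.47 ± 0.534, SD, n = 3) and 64.4% ± 9.31 of the signal, and the cluster was likewise found in 1 replicate. At CG14434, 10 summits at X from 6849661 to 6868039 were found as a cluster in all 3 replicates. There the strongest had 3.21, 3.55 and 2.71 (3.16 ± 0.422) and 20.1% of the signal.

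The several-promoter layout ran through gene-dense stretches. The largest by genes lay at 2L from 13366345 to 13387426, where 7 summits, all at promoters, covered the TSSs of 11 protein-coding genes. Among these were beta'COP, for a coat protein of vesicles, loqs, for a double-stranded RNA-binding partner of Dicer, and Ing5, for a PHD-finger protein. The promoter of CG6565 was the strongest with 4.81, 5.85 and 5.57 (5.41 ± 0.537, SD, n = 3), and that of Ing5 followed with 3.94, 4.01 and 4.53. At ND-B22, a subunit gene of respiratory complex I, the summit reached only 0.702, 0.660 and 0.265. The mean signals of neighbouring promoters of this 1 cluster thus ran from 0.542 to 5.41. At spi, which encodes the EGF receptor ligand Spitz, 8 promoter summits lay at 2L from 19572923 to 19587106, and 4 of them were nearest to a spi TSS. The strongest had 3.79, 3.87 and 4.07 (3.91 ± 0.142). The 7 summits at LPCAT, for a lysophospholipid acyltransferase, and Hex-A, for a hexokinase, lay at X from 9579300 to 9590078 with a strongest of 5.88, 5.31 and 5.86 (5.68 ± 0.323).

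A set of 17 clusters with 89 summits had no summit in a protein-coding gene or within 500 bp of one. The longest of all clusters was among them. It spanned the bantam microRNA, a growth regulator, and the long noncoding RNA gene CR43334, at 3L from 621575 to 644337. Its 10 summits had means from 0.703 to 2.44, with the strongest at 2.31, 2.52 and 2.48 (2.44 ± 0.113, SD, n = 3), and no summit stood far above the rest. A second stretch of 22448 bp held 7 summits at 2L from 1621019 to 1643467, between RFeSP, 6859 bp away, and chinmo, a gene for a BTB zinc-finger protein, 7791 bp away. Its strongest had 5.27, 6.81 and 6.40 (6.16 ± 0.801). The densest cluster in signal lay 1126 bp from tara, at 3R from 16221851 to 16224525, with 5 summits in 2674 bp. Its strongest had 3.99, 5.54 and 5.08 (4.87 ± 0.799), and 2 others had means of 3.42 and 3.75. Other clusters of this kind lay 11019 bp from wg, the Wnt ligand gene wingless, and 5695 bp from Myc, the growth regulator.

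A cluster over noncoding RNA genes had the highest summed authors' signal after ush. It lay at X from 12748315 to 12756124 over lncRNA:Vinr and lncRNA:CR44619, with 1 of its 6 summits in the coding gene CG4004. Of the 6, 2 were high, with 8.09, 7.79 and 7.18 (7.69 ± 0.469, SD, n = 3) and with 5.93, 5.64 and 5.69 (5.75 ± 0.156).

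Clusters overlapped 6 of the 32 genes of an ecdysone cascade list and 5 of 21 nuclear receptor genes, where 3.55% of all protein-coding genes overlapped one. That background is 495 of 13945 genes, extended by 1 kb, and among the 1013 genes of 20 kb or longer it was 8.59%. The cascade genes were EcR, Eip75B, Hr3, Hr4, ftz-f1 and vri, and the first 5 are the nuclear receptor genes. They are 6 of 32 genes, or 18.8% (exact 95% interval 7.21 to 36.4%). All 6 were among the 16 cascade genes of 20 kb or longer. Of the other lists, signalling pathway genes had 7 of 50, namely Raf, Wnt4, aop, foxo, pnt, shn and spi. Axon guidance and adhesion genes had 5 of 44, developmental transcription factors 3 of 57, tracheal genes 2 of 17 and cytoplasmic ribosomal proteins 7 of 88. None of 8 Hox genes and none of 24 muscle genes overlapped a cluster, where counts this small allow up to 36.9% and 14.2%. The lists were chosen with earlier results known, and these counts are descriptions.

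The ftz-f1 cluster had 7 intronic summits at 3L from 18781752 to 18791617, in a gene of 50703 bp. The strongest lay 11707 bp downstream of a ftz-f1 TSS with 5.98, 3.34 and 3.49 (4.27 ± 1.48, SD, n = 3). Replicate 1 stood well above the other two. Of the 4 RORE matches printed for ftz-f1, 1 lay by this summit, 40 bp from it. The summit at 18788118 had 2 more matches within 21 bp and read 1.84, 1.43 and 1.71. The summit at 18783816 had a match 4 bp away and read 2.10, 1.22 and 1.98. The 3 summits with a RORE were the 3 strongest of the 7, and the rest had values between 0.538 and 1.54, with no peak in replicate 3 for 1 of them.

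Eip75B, the gene of the receptor that binds Hr3, had 2 clusters. The first, with 6 summits at 3L from 17964780 to 17972533, had a RORE at 3 of them. Its strongest summit carried a match 3 bp away and had 2.39, 1.74 and 2.07 (2.07 ± 0.328, SD, n = 3). The other summits with a match had means of 0.655 and 1.12, below 1 summit without one at 1.31. The second cluster, with 4 summits at 3L from 17999798 to 18009194, had none, and its strongest summit, 23 bp from an Eip75B TSS, had 2.30, 2.51 and 1.67. Mean G+C content was 53.2% in the first cluster and 31.2% in the second.

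Hr4, a receptor gene of the same cascade, lay under 3 clusters on X with 11 summits in or within 1 kb of the gene. The strongest of them, at 1963924, had 3.29, 2.91 and 3.39 (3.20 ± 0.253, SD, n = 3) and no RORE. The summit with the printed match, 52 bp away, had 2.18, 0.927 and 0.989, again highest in replicate 1. At vri, for a bZIP repressor, 5 summits included a promoter summit with 2.53, 2.66 and 2.50 and no RORE. At beat-Ib, a gene of the Beat family of axon guidance proteins, 2 of 5 summits had a match. They read 1.90, 2.03 and 2.23, and 3.14, 1.70 and 1.79.

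The cluster in Hr3 itself had 4 summits at 2R from 10210847 to 10220069. All 4 also lay in the genes CG12912 and CG46321, which overlap Hr3, and Hr3 is named as the longest. The TSS nearest to the strongest summit was one of CG46321, 7888 bp away. The strongest had 10.6, 11.5 and 13.4 (11.8 ± 1.40, SD, n = 3) and 78.8% ± 1.41 of the signal, and 1 of the others had no peak in replicate 1. The cluster was found in the list of 1 replicate. The line carries a transgene for tagged Hr3, and signal from a transgene copy and from the native gene cannot be told apart here. At EcR, the ecdysone receptor gene, 4 intronic summits lay at 2R from 6115582 to 6120688. The strongest had 1.41, 0.839 and 1.50 (1.25 ± 0.359) and was the one with a RORE. At sbb, for a transcriptional corepressor, 10 intronic summits lay at 2R from 18326669 to 18344565, with a strongest of 3.40, 3.19 and 4.24 (3.61 ± 0.556).

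The 5 summits with a RORE outside the genes above were near or below a typical peak. At CG12769, 1 summit of a 6-summit cluster had a match and read 1.46, 0.865 and 0.994, while the strongest summit of that cluster, without one, had 6.00, 6.32 and 5.89. The cluster beside aop, for the ETS repressor Yan, had 1 of its 4 summits in that gene. Its summit with a match lay outside aop, in an exon of lncRNA:CR43751, and read 0.916, 0.892 and 0.894. At C3G, for a guanine nucleotide exchange factor, it read 0.937, 0.480 and 0.755, and in the CG9853 cluster 0.714, 0.480 and 0.750. In the cluster at RpS15Aa, a ribosomal protein gene, and Prx2, for a peroxiredoxin, it read 0.456, 0.432 and 0.777, and no replicate's own list gave that cluster.

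RORE matches were rare in clusters, and 8 of the 15 summits that had one lay in genes of the ecdysone and receptor lists. They occurred at 1.53% (exact 95% interval 0.857 to 2.50%) of members and at 1.23% (0.929 to 1.61%) of other summits. In the genes of the ecdysone and receptor lists, extended by 1 kb, 8 of 41 cluster summits had one (19.5%, 8.82 to 34.9%), against 7 of the other 942 (0.743%, 0.299 to 1.53%). Outside clusters, 5 of 64 summits in those genes had one (7.81%, 2.59 to 17.3%) and 49 of 4310 elsewhere (1.14%). This split was chosen after the matches were seen, and the ftz-f1 and Eip75B summits carry 6 of the 8. Base composition moved with it, since the mean G+C content was 44.6% for the 41 and 34.3% for the other members. Its part in the result was not tested.

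Summits with a RORE were often highest in replicate 1, inside clusters and outside them. Of the 15 in clusters, which lay in 10 clusters, 10 were highest in replicate 1 (66.7%, exact 95% interval 38.4 to 88.2%). Of the same 15 summits, 0 were highest in replicate 2 and 5 in replicate 3. Their medians were 1.46, 0.915 and 1.39 in replicates 1, 2 and 3. Outside clusters, 28 of 53 summits with a RORE (52.8%, exact 95% interval 38.6 to 66.7%) were highest in replicate 1. Of the 947 members without a RORE and with a peak in every replicate, 32.4% (29.4 to 35.5%) were highest in replicate 1. G+C content moved with this too: of the members without a RORE whose G+C content exceeded 45%, 47.0% (35.9 to 58.3%) were highest in replicate 1, against 31.0% at lower G+C content. Its part was not tested, and this comparison was also chosen after the values were seen.

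**Figure D4:**
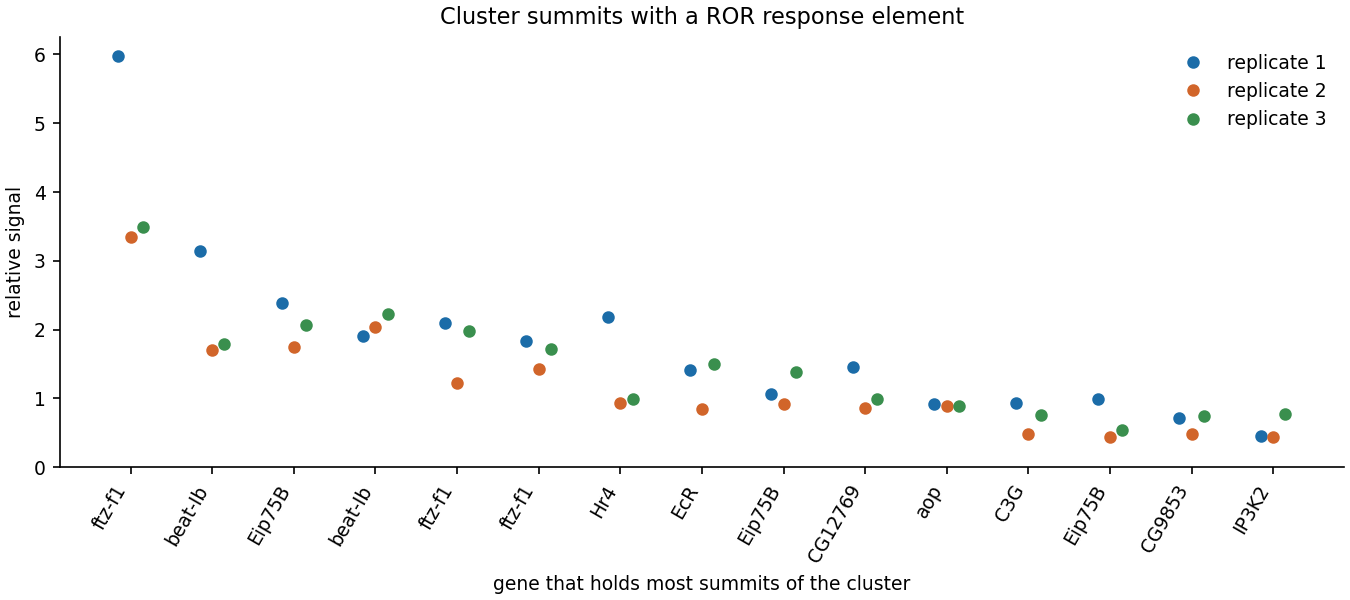
Relative signal in each replicate of the 15 cluster summits with a RORE, ordered by their mean and named by the gene with most summits of the cluster. Replicate 1 is the highest in 10 of 15, with 5.98 at the strongest ftz-f1 summit.

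The DNA replication-related element (DRE), TATCGATA, bound by the transcription factor Dref, was found at 33 members, 3.36% (exact 95% interval 2.32 to 4.68%), and at 4.05% (3.48 to 4.67%) of other summits. At peaks at or above the median signal, reclustered alone, 1 of 179 members had it, 0.559% (0.0141 to 3.07%), and 3.64% of others. All 33 were at promoters, where the shares were 8.53% and 7.07%. Several-promoter clusters held 30 of them, single-gene clusters 3 and the rest 0. The core of the insulator protein CTCF, AGGTGGCGC, was found at 3 members, 0.305% (0.063 to 0.889%), against 0.942% of summits in runs of 2 or 3 and 1.42% of single summits. With the authors' pooled peaks ranked without replicate 1, the CTCF share was 0.594% of members and 1.08% of others. At peaks at or above the median signal 0 of 179 members had it, which allows up to 2.04%, beside 1.12% of others. The GAGA repeat GAGAGAG, bound by the product of Trl, was at 3.76% (2.66 to 5.15%) of members and 2.81% (2.34 to 3.35%) of others. The Hox core TAATTA was at 19.6% and 20.7%. Mean G+C content within 100 bp was 34.7% for members and 33.9% for others, so both sets were A/T-rich. Both strands were read for each element, up to 100 bp from the summit. A match marks letters, not a bound site.

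In the reproducible list, the X chromosome held the largest share of its summits in clusters. On X, 230 of 968 summits were members, 23.8% (exact 95% interval 21.1 to 26.6%), in 44 clusters. The other large arms had 19.4% on 2L, 17.4% on 2R, 16.1% on 3L and 16.4% on 3R, and chromosome 4 had no cluster among its 21 summits. By length, X had 1.87 clusters per Mb and the other large arms had 1.31 to 1.70. More of the X clusters lay in 1 gene, 24 of 44. By number, 3R had 45 clusters, X 44 and 2L 40. In the replicates' own lists X held 34, 38 and 38 clusters, and 2L held 44, 40 and 39. So 2L held more clusters than X in every replicate, unlike in the reproducible list. The share of all clusters that lay on X was 21.9%, and 19.2% to 20% with the pooled peaks ranked without each replicate.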

How the data were processed

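ChIP-seq peaks were analysed for 3 biological replicates of 1 group. Per the labels, chromatin was sheared to 200 to 800 bp. The deposited text files say that the authors called relaxed peaks against a control, for the pooled alignments and for each replicate, then used the irreproducible discovery rate (IDR) to derive a reproducible list on dm6 and on dm3. Not given in the sources used here are the aligner, the caller, its settings and the IDR threshold. The deposited signal value of a peak is the authors', with a scale of its own in each list: its median at the reproducible summits was 40.4, 81.2 and 68.6 in replicates 1, 2 and 3. The dm3 list served for counts alone.

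The summit is the peak start plus the deposited offset, given 1-based. The value of a summit in a replicate is the signal of the relaxed peak that holds it, divided by that replicate's median. A member without such a peak has no value there and was left out of its medians, and counts as no signal in shares of a cluster. Annotation is Ensembl release 115 (BDGP6.54, the dm6 assembly) without transposable elements and without TSSs at microRNA hairpins; the sequence is RefSeq's release of the same assembly. Classes were assigned in the order promoter, coding exon, UTR, other exon, intron, intergenic. Also searched within 100 bp were Motif 1, Ohler 6, Ohler 7 and the Zelda element CAGGTAG, at 0.814%, 0.610%, 3.76% and 0.610% of members and 1.30%, 0.732%, 6.13% and 0.777% of others.

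Members, gene lists and elements were chosen with earlier results of these data known. Clusters named are the 12 with most summits, the 6 highest in summed signal, the 4 highest in signal per kb, and those with a RORE or at an ecdysone cascade or receptor gene. A gene is named where it holds more of a cluster's summits than other genes do, with ties going to the longest, or has a TSS by one. With no second group and with members chosen by position, no test was run; intervals are exact binomial at 95% and cover counting error only. Scripts were tested on simulated data. The tools were pandas 2.3.3, SciPy 1.17.1 and NumPy 2.4.6 under Python 3.11.15, with matplotlib 3.10.9.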

Additional observations from a re-analysis of the deposited data

How the results depend on the processing

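No paired analysis was possible because the study has 1 group. Of 79 alternatives, 49 stayed within 1.5 times a count, or within the interval or SD of a value. For the signal ratio, the share of clusters found in a replicate and the strongest summit's share, leaving out a replicate averaged the remaining values again. Such a mean cannot leave the SD of all 3 values, so these alternatives stayed by construction and are no check. The size of the set follows the rule. Gaps of 2500 and 10000 bp gave 66 and 400 clusters, 304 and 2194 members, median spans of 3961 and 14351 bp and median gaps of 1284 and 2844 bp. Asking for 3 or 5 summits gave 455 and 91 clusters with 1745 and 543 members, and the peaks at or above the median signal gave 40 with 179. Leaving out replicates gave 224 to 236 clusters and 1145 to 1179 members, overlapping 76.1% to 81.1% of the 201 clusters. These lists were the 5357 pooled relaxed peaks strongest in the remaining replicates. The left-out replicate still took part in calling the pooled peaks, so they are not reproducible lists made without it. The same lists gave the shares at promoters, inside 1 gene and with a RORE without each replicate. The log2 signal ratio was 0.12 with overlapping peaks merged, 0.13 on the authors' signal, 0.20 at promoters and 0.22 away from them, and 0.14 to 0.17 without each replicate. The share of clusters found in a replicate fell to 21.2% with lists cut to 0.5 of the peaks, and was 71.4% to 77.9% without each replicate. The member share at promoters was 27.0% with promoters of 200 bp, 51.8% with 1000 bp, 34.8% with peaks merged and 41.1% to 42.8% without each replicate, and stayed below that of other summits in all 7 alternatives. Clusters inside 1 gene were 28.4% without the extension, and 41.5% to 42.6% without each replicate. RORE shares were 2.79% at peaks at or above the median signal and 1.02% to 1.40% without each replicate. DRE was at 1.32% and 5.09% of members in windows of 50 and 200 bp, against 1.92% and 7.52% of others. The strongest summit held 37.5% on the authors' signal. Depth is unknown, and control peaks were not analysed here, so sites enriched without the tagged protein were not set aside.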

Other observations

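Below the reproducible threshold, the pooled relaxed list held 18229 further peaks, of which 433 had their summit inside a cluster span. That is 2.69 per 10 kb of span against 1.35 per 10 kb outside. The spans are bounded by reproducible peaks, and the sequence outside was not matched to them, so the values are given as a description.

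The core GGGTCA stood in 9 of the 16 RORE matches of cluster summits, and 8 of the 16 lay within 25 bp of the summit. In ecdysone and receptor genes 5 of 9 did, and elsewhere 3 of 7. Matches at summits outside clusters were not counted in this way, so the counts describe the cluster matches only.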
